A study of Mus musculus with 48 samples.

Results

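The 9 genes described here, *Mbp*, *Mog*, *Mag*, *Mobp*, *Cnp*, *Cldn11*, *Opalin*, *Ermn* and *Mal*, encode proteins of the myelin sheath and of the mature oligodendrocytes that make it. They were chosen by name, and each symbol matched 1 of the 52636 genes measured. RNA sequencing was performed on right amygdala punches of 48 female mice, aged 8 to 11 weeks and divided into 6 groups of 8, whose strain the labels give as C57BL/6NTac-Brd1 for both genotypes. WT mice and *Brd1*+/- mice, heterozygous for a constitutive targeted deletion within *Brd1* (C57BL/6NTac-Brd1tm1.2Arte/AborgMmucd), had received subcutaneous saline (vehicle), the tricyclic imipramine (IMN) at 10 mg/kg or the serotonin reuptake inhibitor fluoxetine (FLX) at 5 mg/kg. The WT mice were litter-matched, and all mice had been through behavioral tests that ended with forced swimming shortly before the tissue was taken. The study asked whether reduced *Brd1* expression alters gene expression in the brain and how antidepressants act on such changes. Vehicle and drug mice had sample codes in ranges that did not overlap, so that whatever the codes stand for cannot be told apart from the drug.

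Oligodendrocytes wrap axons of the central nervous system in many layers of their own membrane, which insulates the axon and speeds conduction. They arise from dividing precursors through a short-lived, newly formed stage. Final maturation is driven by the transcription factors SOX10 and MYRF, which bind near myelin genes and switch them on together. Myelin mRNA is therefore a common measure of how much white matter a tissue sample holds and of how mature its oligodendrocytes are. In whole tissue, fewer oligodendrocytes and less myelin RNA per oligodendrocyte cannot be told apart.

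The 9 genes lay on 8 chromosomes, with *Ermn* and *Mal* both on chromosome 2, and all were annotated as protein-coding (GENCODE M21, GRCm38). *Mbp* (ENSMUSG00000041607, chromosome 18, 82475146 to 82585637, plus strand) encodes myelin basic protein, which fuses the cytoplasmic faces of the membrane in compact myelin. *Mobp* (ENSMUSG00000032517, chromosome 9, 120149707 to 120181484, plus strand) encodes a second small basic protein of compact myelin. *Cnp* (ENSMUSG00000006782, chromosome 11, 100574904 to 100591729, plus strand) encodes the phosphodiesterase of non-compact myelin, which keeps its cytoplasmic channels open. *Mag* (ENSMUSG00000036634, chromosome 7, 30899176 to 30914873, minus strand) encodes the adhesion protein that faces the axon. *Mog* (ENSMUSG00000076439, chromosome 17, 37010743 to 37023398, minus strand) encodes the glycoprotein of the outer myelin surface. *Cldn11* (ENSMUSG00000037625, chromosome 3, 31149920 to 31164324, plus strand) encodes the claudin of the tight junctions that seal the sheath. *Mal* (ENSMUSG00000027375, chromosome 2, 127633226 to 127656695, minus strand) encodes a proteolipid of membrane rafts. *Opalin* (ENSMUSG00000050121, chromosome 19, 41061710 to 41077113, minus strand) encodes a transmembrane glycoprotein of oligodendrocytes. *Ermn* (ENSMUSG00000026830, chromosome 2, 58045113 to 58052864, minus strand) encodes ermin, an actin-binding protein that appears late in maturation. On the opposite strand, *Cnp* overlapped *Dnajc7*, *Ermn* overlapped *Galnt5*, *Mbp* overlapped the pseudogene *Rpl21-ps8* and *Mog* overlapped *Gm22388*. As the strand setting of the counting is not given in the sources used here, reads of such pairs could have been exchanged. *Mobp* overlapped *Gm38642* on the same strand, and reads of that pair could have been exchanged under any strand setting.

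All 9 transcripts were detected in all 48 libraries. Levels are given in TPM, which corrects reads for transcript length and scales each library to a fixed total, so that levels of different genes can be compared within a library. Over the 48 libraries *Mobp* was the most abundant, with a mean of 1241 TPM, followed by *Mbp* with 802 TPM, *Cnp* with 409 TPM, *Mal* with 314 TPM, *Cldn11* with 277 TPM, *Mag* with 251 TPM and *Mog* with 122.1 TPM. *Ermn* (65.9 TPM) and *Opalin* (27.4 TPM) were the least abundant. How many reads lie behind a TPM value is not known here, and counting intervals are therefore not given. The columns summed to nearly the same total, no libraries held identical values, and between 23420 and 27252 genes were listed above 0.

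Upstream sequence was taken from RefSeq (GRCm38.p6), whose table held windows for 8 of the 9 genes. In each window the 210 bases from 250 to 41 bases before the start were searched on both strands for ACAAAG, the core word of SOX proteins (CTTTGT on the other strand), and for CTGGCAC or CTGGTAC, the core words of MYRF (GTGCCAG or GTACCAG on the other strand). A SOX and a MYRF word can share the letters AC, but no matches overlapped in the windows shown. The 8 genes had 10 windows, as *Mag* had several starts, and overlapping *Mag* windows shared 1 SOX match. The SOX word was found for 4 of the 8 genes (*Mag*, *Mobp*, *Cnp* and *Opalin*), in 5 of the 10 windows, and 14.2% of all 32851 windows of the same length held it. A MYRF word was found for 3 of the 8 genes (*Mog*, *Mag* and *Cnp*), in 3 of the 10 windows, against 5.02% of all windows. The window of *Mobp*, the most abundant of the 9 transcripts, held the SOX word 6 times, and 1.31% of all windows held it at least 2 times. These matches describe the letters and do not mark sites bound by a factor. The 4 windows below, 5′ to 3′ on the strand of the gene, are examples of windows that held a word. Windows of *Mag*, which also held both words, are not shown. The capitals mark the SOX words of *Mobp* and *Opalin*, both words of *Cnp* and the MYRF word of *Mog*. The windows of *Cldn11*, *Ermn* and *Mal* held neither word.
Mobp (chr9:120149492-120149701, plus strand): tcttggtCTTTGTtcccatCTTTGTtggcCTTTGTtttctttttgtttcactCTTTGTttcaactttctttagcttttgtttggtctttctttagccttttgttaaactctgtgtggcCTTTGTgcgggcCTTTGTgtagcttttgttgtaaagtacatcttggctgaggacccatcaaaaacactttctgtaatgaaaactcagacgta
Cnp (chr11:100574689-100574898, plus strand): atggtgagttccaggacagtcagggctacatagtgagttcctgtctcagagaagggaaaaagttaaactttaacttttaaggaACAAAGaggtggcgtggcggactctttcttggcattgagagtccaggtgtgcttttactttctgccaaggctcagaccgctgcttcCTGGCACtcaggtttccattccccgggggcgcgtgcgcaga
Mog (chr17:37023439-37023648, minus strand): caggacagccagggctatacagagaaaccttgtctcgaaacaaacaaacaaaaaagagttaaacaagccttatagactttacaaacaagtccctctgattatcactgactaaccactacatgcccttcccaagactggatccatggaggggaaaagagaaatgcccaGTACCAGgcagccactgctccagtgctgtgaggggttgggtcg
Opalin (chr19:41077154-41077363, minus strand): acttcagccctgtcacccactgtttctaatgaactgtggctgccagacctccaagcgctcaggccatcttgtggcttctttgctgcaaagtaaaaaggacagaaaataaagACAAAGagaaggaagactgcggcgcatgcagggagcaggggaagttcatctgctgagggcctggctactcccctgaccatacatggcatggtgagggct

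The label of the genes was checked against the other cells that make or border on myelin. Of the Schwann cell genes of peripheral nerve, *Pmp2* was listed at 0 in all 48 libraries, and *Prx* and *Ncmap* reached at most 2.53 and 2.93 TPM. The punches themselves varied in content. The sum of 7 genes of striatal projection neurons ranged from 101 to 7409 TPM, the sum of 6 choroid plexus genes from 8.77 to 29625 TPM and the sum of 5 genes of amygdala neurons from 17.4 to 611 TPM. Of the amygdala genes, *Tac2* was listed at 0 in 3 libraries and *Crh* in 1.

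The targeted gene was checked first among the single genes. *Brd1* was measured at 26.5 to 41.03 TPM in WT mice with vehicle, and at 21.8 to 30.6 TPM in *Brd1*+/- mice with vehicle. The log2 difference between *Brd1*+/- and WT mice was −0.45 with vehicle (adjusted *p* = 0.0512), −0.68 with IMN (adjusted *p* = 0.102) and −0.49 with FLX (adjusted *p* = 0.0362, limma), and the FLX value alone passed the threshold of 0.05. Across libraries, with group means removed, *Brd1* had a Pearson's r of 0.0767 with the mean of the 9 myelin genes.

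Myelin transcripts differed between individual mice far more than most transcripts did. The sum of the 9 genes ranged from 476 TPM in WT vehicle replicate 4 to 11989 TPM in *Brd1*+/- FLX replicate 4. Among WT mice the lowest, median and highest sums were 476, 1322 and 7826 TPM with vehicle, 976, 2298 and 7675 TPM with IMN, and 1363, 4041 and 5368 TPM with FLX. They were 1487, 3653 and 10626 TPM in *Brd1*+/- vehicle mice, 785, 1572 and 4429 TPM in *Brd1*+/- IMN mice, and 585, 1958 and 11989 TPM in *Brd1*+/- FLX mice. By median the order from low to high was WT vehicle, *Brd1*+/- IMN, *Brd1*+/- FLX, WT IMN, *Brd1*+/- vehicle and WT FLX, and the ranges of all neighbours overlapped. The sum spanned 3.94-fold in WT FLX mice, 16.4-fold in WT vehicle mice and 20.5-fold in *Brd1*+/- FLX mice, with CVs of 33.0%, 110% and 107%. The 9 genes together made up 0.0476% to 1.20% of all TPM.

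**Figure D1:**
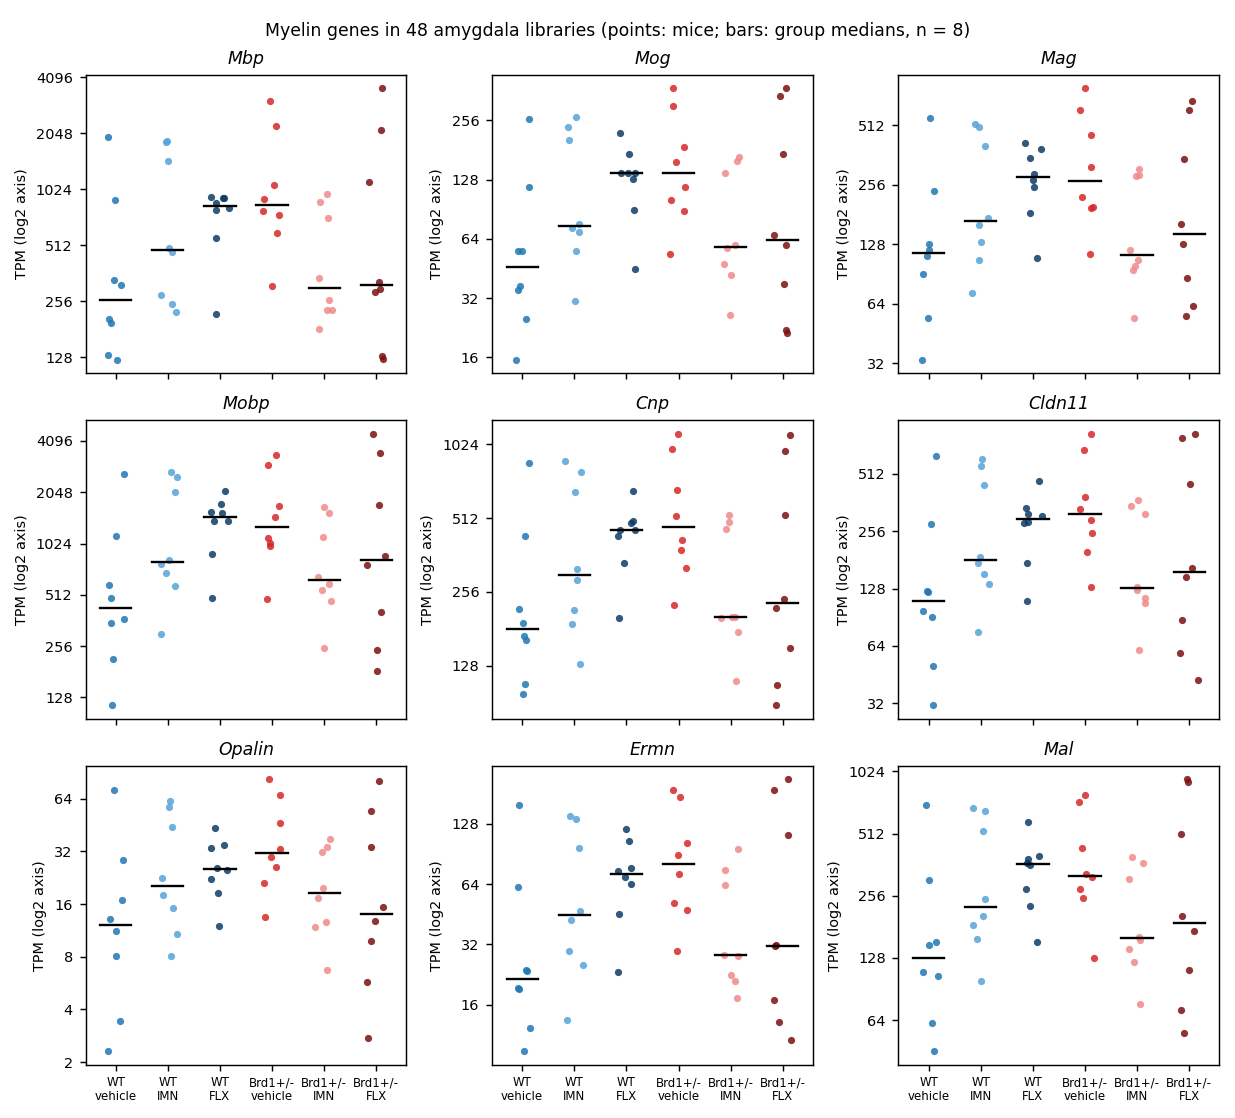
Levels of the 9 myelin genes in TPM on a log2 axis, 1 panel per gene, by group; each point is 1 mouse and each bar the median of 8 mice. All groups overlap for all genes, and the medians of WT FLX and *Brd1*+/- vehicle are the highest pair in each panel.

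Single genes showed the same picture. In WT vehicle mice the lowest, median and highest *Mbp* levels were 124.5, 260 and 1959 TPM, and among *Brd1*+/- vehicle mice they were 309, 842 and 3061 TPM. WT IMN mice had 225, 485 and 1849 TPM, and WT FLX mice had 219, 835 and 934 TPM. *Brd1*+/- IMN mice had 182, 301 and 962 TPM, and *Brd1*+/- FLX mice had a median of 312 TPM and a highest level of 3571 TPM, and replicates 7 and 1 were the lowest. Replicate 1 stood far above the 7 other WT vehicle mice, and replicates 4 and 6 stood far above the other *Brd1*+/- FLX mice. *Mobp*, the other basic protein of compact myelin, had medians of 430, 799 and 1468 TPM in WT mice with vehicle, IMN and FLX and of 1282, 622 and 818 TPM in *Brd1*+/- mice. *Cnp* of non-compact myelin had medians of 181, 301 and 457 TPM in WT mice and of 470, 202 and 230 TPM in *Brd1*+/- mice, in the same order of treatments. The order of the 3 treatments thus differed between the genotypes in medians for both genes, while the ranges overlapped.

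Among the membrane proteins, *Mag* had medians of 116, 168 and 280 TPM in WT mice with vehicle, IMN and FLX and of 269, 113 and 145.4 TPM in *Brd1*+/- mice. *Mog* had medians of 46.1, 74.5 and 138.2 TPM in WT mice and of 137.7, 58.4 and 63.3 TPM in *Brd1*+/- mice. *Cldn11* had medians of 110, 181 and 297 TPM in WT mice and of 314, 129 and 156 TPM in *Brd1*+/- mice. For all 3 genes WT vehicle and *Brd1*+/- IMN mice formed the low end. *Mal* had medians of 129, 226 and 365 TPM in WT mice and of 321, 159 and 188 TPM in *Brd1*+/- mice. *Opalin* had medians of 12.1, 20.2 and 25.5 TPM in WT mice and of 31.4, 18.5 and 14.03 TPM in *Brd1*+/- mice. *Ermn*, the late actin-binding gene, had medians of 21.4, 44.7 and 72.0 TPM in WT mice and of 80.5, 28.2 and 31.4 TPM in *Brd1*+/- mice. WT FLX and *Brd1*+/- vehicle held the highest pair of medians for all 9 genes, and WT IMN the third highest for all but *Mobp*.

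The spread within groups was measured as the SD of log2(TPM + 0.1) after removal of group means. It ran from 0.97 for *Cnp* to 1.26 for *Mbp*, with a median of 1.15 over the 9 genes. The median over all 19222 genes with a mean of at least 1 TPM was 0.377. Low genes are noisier, and among the 11549 genes with a mean of at least 10 TPM the median SD was 0.283 and the 9 genes stood at percentiles 95.5 to 97.7, against 85.4 to 90.4 among the larger set. For *Mog*, the gene at the median, that SD is a factor of 2.22.

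The 9 genes varied together from library to library. With group means removed, Pearson's r over the 48 libraries was between 0.931 (*Mbp* with *Opalin*) and 0.994 (*Cldn11* with *Mal*) for the 36 pairs, with a median of 0.982. Spearman's rho was between 0.918 and 0.988. Each r and each rho had a permutation *p* of 1e-05, two-sided, the smallest that 100000 permutations within groups can give, and the same value after adjustment over the 36 pairs. Without the 2 libraries farthest from the median of the first gene of a pair, r was between 0.923 and 0.993. It was between 0.931 and 0.995 in the vehicle libraries alone and between 0.935 and 0.994 in the drug libraries alone. A single axis held 97.8% of the standardized variance of the 9 genes, and the next axis held 0.864%.

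Small differences between the genes remained within this common movement. Against the mean of the other 8 genes, *Cnp* had the lowest slope, 0.847, and spanned 12.8-fold over the 48 libraries. *Mbp* had the highest slope, 1.10, and *Mobp* spanned 39.2-fold. *Cldn11* followed the others most closely, with a residual SD of 0.10 on the log2 scale, and *Mbp* (0.33) and *Opalin* (0.32) least closely. Each gene was then set against the mean of the 9 genes in the same library, relative to the median offset of that gene over all libraries, on the log2 scale. Of 432 such offsets, 13 in 9 libraries were larger than 0.5 in size. Of these, 5 were *Opalin* and 5 were *Mbp*. The offset of *Opalin* was −1.09 in WT vehicle replicate 5 (at 2.32 TPM), −0.82 in WT FLX replicate 6 (at 18.6 TPM) and −0.73 in *Brd1*+/- FLX replicate 7 (at 2.74 TPM). In *Brd1*+/- FLX replicate 4, the library with the most myelin RNA, that of *Mbp* was 0.71 and that of *Opalin* −0.60. In WT vehicle replicate 4, the library with the least, that of *Cnp* was 0.71 and that of *Mobp* −0.55. The ratio of *Mbp* to *Mobp* had a median of 0.634 and ranged from 0.377 to 1.08.

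**Figure D2:**
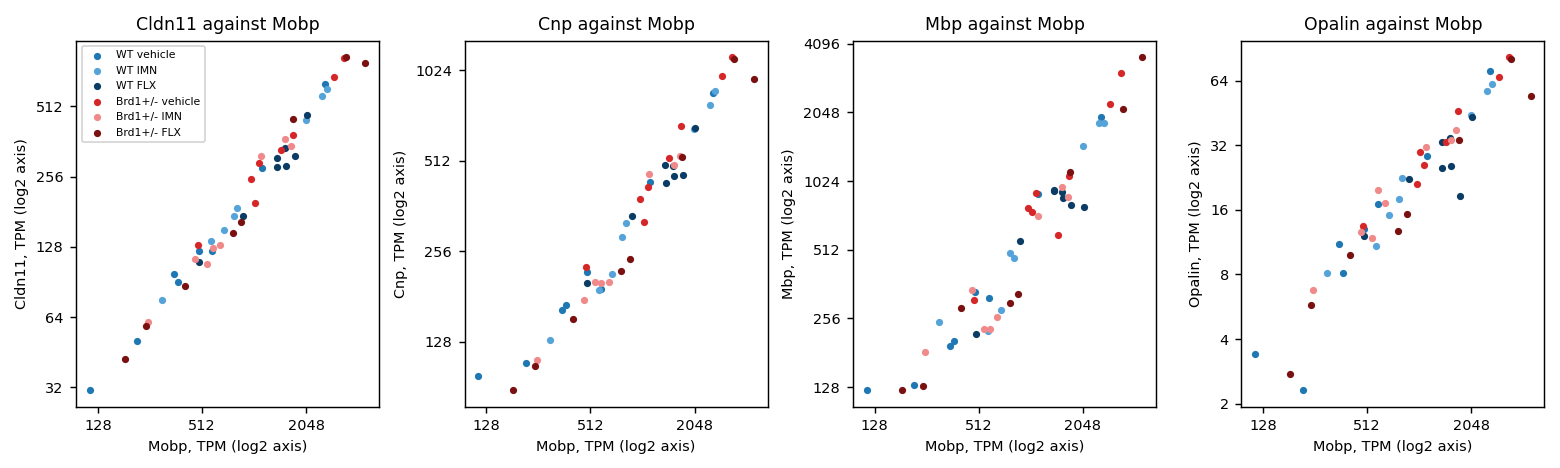
*Cldn11*, *Cnp*, *Mbp* and *Opalin* against *Mobp*, in TPM on log2 axes; each point is 1 of 48 libraries, colored by group. *Cldn11* and *Cnp* lie close to a line, while *Mbp* and *Opalin* scatter more, with residual SDs against the other members of 0.33 and 0.32 on the log2 scale.

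No myelin gene passed the test for the effect of genotype under vehicle, although all 9 were higher in *Brd1*+/- mice. The log2 difference ranged from 1.24 for *Cnp* (SE 0.43, 95% interval 0.33 to 2.14) to 1.59 for *Ermn* (SE 0.52, 0.48 to 2.69), with a median of 1.49 against a median of 0.03 over all genes tested. In linear terms this was 2.36-fold for *Cnp* and 3.00-fold for *Ermn*. In limma with Benjamini-Hochberg adjustment 0 of the 9 genes were called, with adjusted *p* from 0.328 to 0.430, and 0.708% of all genes were called. At an unadjusted *p* under 0.05 the count was 9 of 9, against 8.52% of all genes. All 8 *Brd1*+/- vehicle mice lay above the WT vehicle median for 7 genes, and 7 of 8 did for *Mag* and *Mal*. Replicates 6 and 7 of the *Brd1*+/- vehicle mice lay above the highest WT vehicle mouse for 8 of the 9 genes, and replicate 7 alone did for *Opalin*.

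One WT mouse decided this call for some genes. Replicate 1 of WT vehicle had 1959 TPM of *Mbp* and 2617 TPM of *Mobp*, against 899 and 1132 TPM in replicate 7, the next highest. Without replicate 1 the median log2 difference was 1.83, and 2 of the 9 genes were called, *Ermn* (1.95, SE 0.43, adjusted *p* = 0.0356) and *Cnp* (1.52, SE 0.36, adjusted *p* = 0.0486). The other 7 genes had adjusted *p* from 0.0527 to 0.0729 in that fit, in which 1.46% of all genes were called.

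The other oligodendrocyte genes and the markers of other cells were read beside this difference. Of 34 other genes of mature oligodendrocytes, 0 were called, 31 were higher at an unadjusted *p* under 0.05 and the median log2 difference was 1.23. The 8 transcription factors of the lineage had a median of 0.78, the 6 genes of newly formed oligodendrocytes 0.36 and the 6 precursor genes 0.15, with 0 called in each list and 6, 3 and 0 higher at an unadjusted *p* under 0.05. Of the other cell types, 0 genes were called, and 4 of 8 microglial, 3 of 7 astrocyte, 2 of 6 endothelial and 1 of 5 red blood cell genes were higher at an unadjusted *p* under 0.05. The red blood cell genes had a median log2 difference of 0.64, against 0.28, 0.30 and 0.25 in the microglial, astrocyte and endothelial lists, and all 5 were above 0. They summed to 173 to 743 TPM among WT and to 215 to 987 TPM among *Brd1*+/- mice. Of the neurofilament genes, *Nefh* had a log2 difference of 0.70 (SE 0.29, adjusted *p* = 0.5003). The summed microglial genes ranged from 392.8 to 482 TPM among WT and from 396 to 858 TPM among *Brd1*+/- mice. The astrocyte genes summed to 1259 to 1952 TPM and to 1412 to 2550 TPM, and the endothelial genes to 141.6 to 193 TPM and to 150 to 236 TPM. The choroid plexus genes had a median log2 difference of 1.58 and summed to 8.79 to 29625 TPM among WT and to 11.7 to 10745 TPM among *Brd1*+/- mice. The part of these cell types in the myelin difference was not tested.

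In the drug-treated mice the difference between genotypes had the other sign, with 95% intervals that included 0. With IMN the 9 genes had a median log2 difference of −0.48 between *Brd1*+/- and WT mice, from −0.64 for *Mbp* (95% interval −1.76 to 0.48) to −0.32 for *Opalin* (−1.29 to 0.64). Of the 9 genes, 0 were called by limma and 0 had an unadjusted *p* under 0.05. Of all genes 0.017% were called and 3.58% had an unadjusted *p* under 0.05. With FLX the median was −0.56, from −0.64 for *Opalin* (−1.82 to 0.55) to −0.48 for *Mbp* (−1.81 to 0.86). Again 0 were called and 0 had an unadjusted *p* under 0.05, against 1.54% and 16.6% of all genes. For each gene, 3 of 8 *Brd1*+/- IMN mice and 3 of 8 *Brd1*+/- FLX mice lay above the WT median of the same treatment. With 1 library left out the median lay between −0.73 (without WT IMN replicate 1) and −0.28 (without WT IMN replicate 3) for IMN, and between −0.88 (without *Brd1*+/- FLX replicate 4) and −0.28 (without *Brd1*+/- FLX replicate 7) for FLX. These intervals do not show that the genotypes were alike.

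In WT mice both drugs were compared with the same 8 vehicle mice. With IMN the median log2 difference was 0.93, from 0.69 for *Cnp* (95% interval −0.31 to 1.70) to 1.07 for *Mobp* (−0.17 to 2.31). Of the 9 genes, 0 were called and 0 had an unadjusted *p* under 0.05, while 0% of all genes were called and 4.58% had an unadjusted *p* under 0.05. With FLX the median was 1.16, from 0.96 for *Cnp* (SE 0.38, 0.17 to 1.76) to 1.42 for *Mobp* (SE 0.50, 0.37 to 2.48). Of the 9 genes 0 were called by limma, with adjusted *p* from 0.166 to 0.317, while 0.335% of all genes were called. At an unadjusted *p* under 0.05 there were 8 of 9, all but *Opalin*, against 16.8% of all genes. All 8 WT FLX mice lay above the WT vehicle median for *Mobp*, *Cnp*, *Ermn* and *Mal*, and 7 of 8 did for the other 5 genes, but none exceeded WT vehicle replicate 1.

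Without WT vehicle replicate 1, the FLX difference in WT mice had a median of 1.51 and 7 of the 9 genes were called, with the lowest adjusted *p*, 0.0298, for *Ermn* (1.68, SE 0.38). *Mbp* (adjusted *p* = 0.0511) and *Opalin* (adjusted *p* = 0.0748) were not called. In that fit 4.11% of all genes were called. With all libraries, 0 of the 34 other mature oligodendrocyte genes were called, 26 were higher at an unadjusted *p* under 0.05 and their median was 0.99. The heavy neurofilament gene *Nefh*, a gene of large axons, was higher with FLX (log2 difference 1.46, SE 0.28, adjusted *p* = 0.0382), and so was the endothelial transporter gene *Abcb1a* (0.61, SE 0.11, adjusted *p* = 0.0352). Of the 5 amygdala neuron genes 0 were called and 3, *Prkcd* (0.67), *Crh* (2.35) and *Tac2* (2.73), were higher at an unadjusted *p* under 0.05. The other 2, *Rspo2* and *Cyp26b1*, were below 0, with a lowest log2 difference of −1.54 and 0 at that level. The amygdala genes summed to 17.4 to 246 TPM with vehicle and to 57.6 to 401 TPM with FLX. Of the 7 astrocyte genes 2 were higher and 1 was lower at an unadjusted *p* under 0.05, and the 7 striatal genes had a median of −0.41, with 0 at that level. The part of these genes in the myelin values was not tested.

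In *Brd1*+/- mice both drugs were set against the same 8 vehicle mice, and the 9 genes were lower with each drug without passing the test. With IMN the median log2 difference was −1.01, from −1.30 for *Mbp* (SE 0.46, 95% interval −2.29 to −0.32) to −0.88 for *Opalin* (SE 0.40, −1.72 to −0.04). Of the 9 genes 0 were called by limma, with adjusted *p* from 0.338 to 0.505, and 0.776% of all genes were called. All 9 had an unadjusted *p* under 0.05, against 9.30% of all genes. Between 1 and 3 of the 8 *Brd1*+/- IMN mice lay above the vehicle median, depending on the gene, and none lay above the highest vehicle mouse. Of the 34 other mature oligodendrocyte genes 0 were called and 27 were lower with IMN at an unadjusted *p* under 0.05, with a median of −0.999, as were 4 of 8 microglial and 3 of 6 endothelial genes, with medians of −0.28 and −0.35. The part of those cells was not tested. With FLX the median was −0.84, from −1.08 for *Opalin* (SE 0.60, −2.34 to 0.19) to −0.63 for *Mal* (SE 0.59, −1.87 to 0.61). In that comparison 0 of the 9 genes were called and 0 had an unadjusted *p* under 0.05, against 0.731% and 6.94% of all genes. Replicate 4, replicate 6 or both of the *Brd1*+/- FLX mice exceeded all *Brd1*+/- vehicle mice for *Mbp*, *Mobp*, *Cldn11*, *Ermn* and *Mal*, and 3 of 8 lay above the vehicle median for each of the 9 genes.

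The drugs were also compared with each other. Between FLX and IMN in WT mice the median log2 difference was 0.27, from 0.12 for *Opalin* (95% interval −0.74 to 0.97) to 0.40 for *Ermn* (−0.57 to 1.38). In *Brd1*+/- mice it was 0.23, from −0.20 for *Opalin* (−1.47 to 1.07) to 0.36 for *Mbp* (−1.05 to 1.77). In both comparisons 0 of the 9 genes were called, 0 had an unadjusted *p* under 0.05 and 0% of all genes were called, while 4.78% and 2.99% of all genes had an unadjusted *p* under 0.05. In WT mice the median lay between 0.07 (without WT IMN replicate 1) and 0.46 (without WT IMN replicate 3) when 1 library was left out. In *Brd1*+/- mice the median was −0.09 without *Brd1*+/- FLX replicate 4 and −0.08 without replicate 6.

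Whether the drug response differed between the genotypes was tested with an interaction term in the 4 groups concerned, and the 9 genes did not pass. For IMN the interaction had a median of −1.95 on the log2 scale, from −2.21 for *Mbp* (SE 0.81, 95% interval −3.85 to −0.56) to −1.67 for *Cnp* (SE 0.63, −2.96 to −0.39). The adjusted *p* ran from 0.369 to 0.448, and 0.536% of all genes were called. For FLX the median was −2.04, from −2.21 for *Ermn* (SE 0.84, −3.92 to −0.51) to −1.80 for *Cnp* (SE 0.67, −3.17 to −0.44), against a median of −0.10 over all genes. The adjusted *p* ran from 0.160 to 0.230, and 1.71% of all genes were called. In both interactions 0 of the 9 genes were called by limma and 9 had an unadjusted *p* under 0.05, against 9.24% of all genes for IMN and 16.8% for FLX. Both interactions share the vehicle mice of both genotypes, so their values are not independent. Markers of other cells were read beside them. In the IMN interaction 0 were called, while 6 of 8 microglial genes (median −0.47) and 2 of 6 endothelial genes (median −0.50) were lower at an unadjusted *p* under 0.05. In the FLX interaction 3 of 7 astrocyte genes (median −0.56) and 2 of 6 endothelial genes (median −0.45) were lower at that level, and 1 astrocyte gene was higher. All 5 red blood cell genes were below 0 in both, with medians of −0.45 for IMN and −0.88 for FLX and 0 at that level. The part of these cells was not tested.

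**Figure D3:**
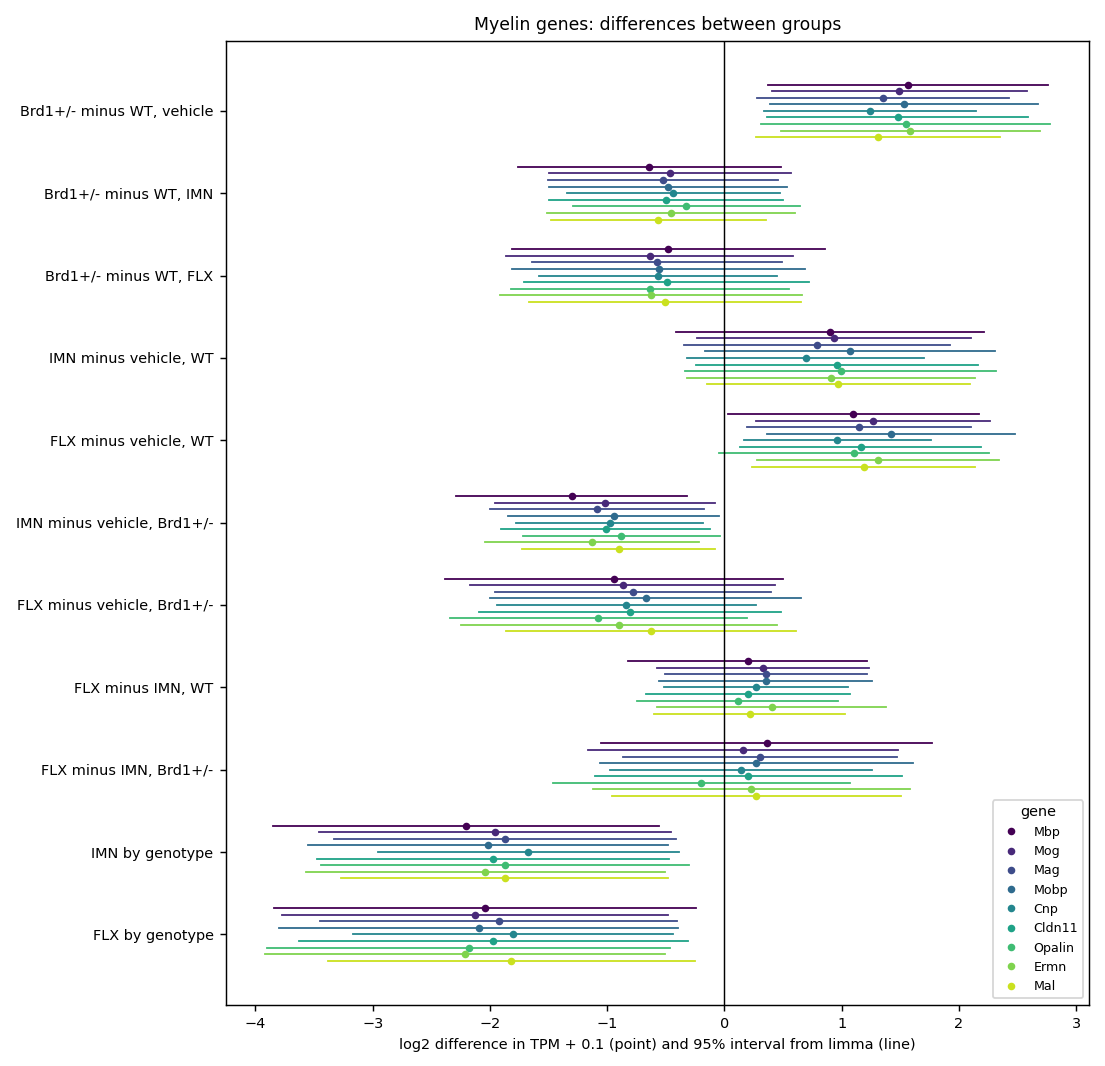
Log2 differences of the 9 myelin genes (points) with 95% intervals from limma (lines) in the 11 comparisons; positive values mean higher in the group named first, and the interaction rows give the drug effect in *Brd1*+/- minus that in WT mice. Intervals lie above 0 for all genes in *Brd1*+/- minus WT with vehicle. They lie below 0 for all genes in both interactions and in IMN minus vehicle in *Brd1*+/- mice. In FLX minus vehicle in WT mice they lie above 0 for all genes but *Opalin*. All intervals are before any adjustment for the number of genes tested.

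Of the other mature oligodendrocyte genes, *Evi2a*, a gene within an intron of *Nf1* and so uncertain where strand was not used, passed the test in 1 comparison, the FLX interaction (−2.21, SE 0.60, adjusted *p* = 0.0495). The other 33 of 34 did not, and 29 of the 34 were lower there at an unadjusted *p* under 0.05, with a median of −1.86. For IMN 0 of the 34 were called, 31 were lower at an unadjusted *p* under 0.05 and the median was −1.72. *Nefh* also passed in the FLX interaction (−1.97, SE 0.41, adjusted *p* = 0.00949) and between genotypes with FLX (−1.27, SE 0.27, adjusted *p* = 0.0322).

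Genes whose level followed the 9 members most closely were ranked by Pearson's r with the mean of the 9 standardized genes over 48 libraries, group means removed, among 19213 other genes with a mean of at least 1 TPM. Among the closest were *Tmem88b* (r = 0.995), *Fa2h* (0.991), which hydroxylates the fatty acids of myelin lipids, *Gjc3* (0.990), a connexin gene, and *Myrf* (0.990), the maturation factor. They were followed by *S1pr5* (0.989), a sphingosine phosphate receptor gene, *Prr18* (0.988), *Erbb3* (0.986), a neuregulin receptor gene, *Ttyh2* (0.985) and *Lpar1* (0.985), a lysophosphatidic acid receptor gene. In all, 167 genes (0.869%) had an r above 0.9 and 11.4% an r above 0.5, with a median of 0.0107. These correlations describe genes measured in the same tissue punches, 1 per mouse, and depth could not be set beside them.

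Over all libraries the likeness fell off along the lineage. Of the 34 other mature genes, 27 had an r above 0.9, with a median of 0.959 and the lowest value for *Jam3* (0.787), a junction adhesion gene. The 8 transcription factors had a median of 0.886, from *Sox8* (0.626) through *Olig2* (0.898), *Olig1* (0.915) and *Sox10* (0.945) to *Myrf*. Genes of newly formed oligodendrocytes had a median of 0.717, with *Bcas1* at 0.942 and *Enpp6* at 0.925 but *Gpr17* at 0.610 and *Tmem163* at 0.315. The precursor genes had a median of 0.243, with *Pdgfra*, the growth factor receptor that defines precursors, at 0.220, *Cspg4* at 0.171, *Cacng4* at 0.0336 and *Vcan* at 0.611. The values differed between vehicle and drug libraries. The mean of the precursor genes had an r of 0.245 in the vehicle libraries and of 0.622 in the drug libraries, *Pdgfra* of −0.0691 and 0.425, and *Gpr17* of 0.208 and 0.773. For the other mature genes the corresponding values were 0.989 and 0.994. The precursor sum stayed between 107 and 216 TPM while the myelin sum spanned its full range.

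Genes of other cells of the punch had lower medians than the mature genes, the transcription factors and the newly formed stage, but several exceeded the precursor genes. The median r was 0.553 for 7 astrocyte genes, from *Slc1a2* (−0.480), the glutamate transporter, to *Aqp4* (0.702), the water channel. It was 0.487 for 8 microglial genes, 0.453 for 6 endothelial genes and 0.423 for 5 red blood cell genes. The choroid plexus genes (median 0.103) and the striatal genes (0.0299) were close to the median of all genes. Some of these values also differed between vehicle and drug libraries. The r of the list mean was 0.150 and 0.686 for astrocytes, 0.348 and −0.145 for striatal genes, 0.314 and 0.0751 for choroid plexus genes and −0.347 and 0.245 for amygdala genes. None of these differences was tested. Neuronal genes had a median of −0.149, from *Syt1* (−0.642), a synaptic vesicle gene, to *Gad1* (0.418). Of the neurofilaments *Nefh* stood at 0.562 and *Nefl* at −0.381, and of the amygdala genes *Prkcd* stood at 0.547 and *Rspo2* at −0.497.

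**Figure D4:**
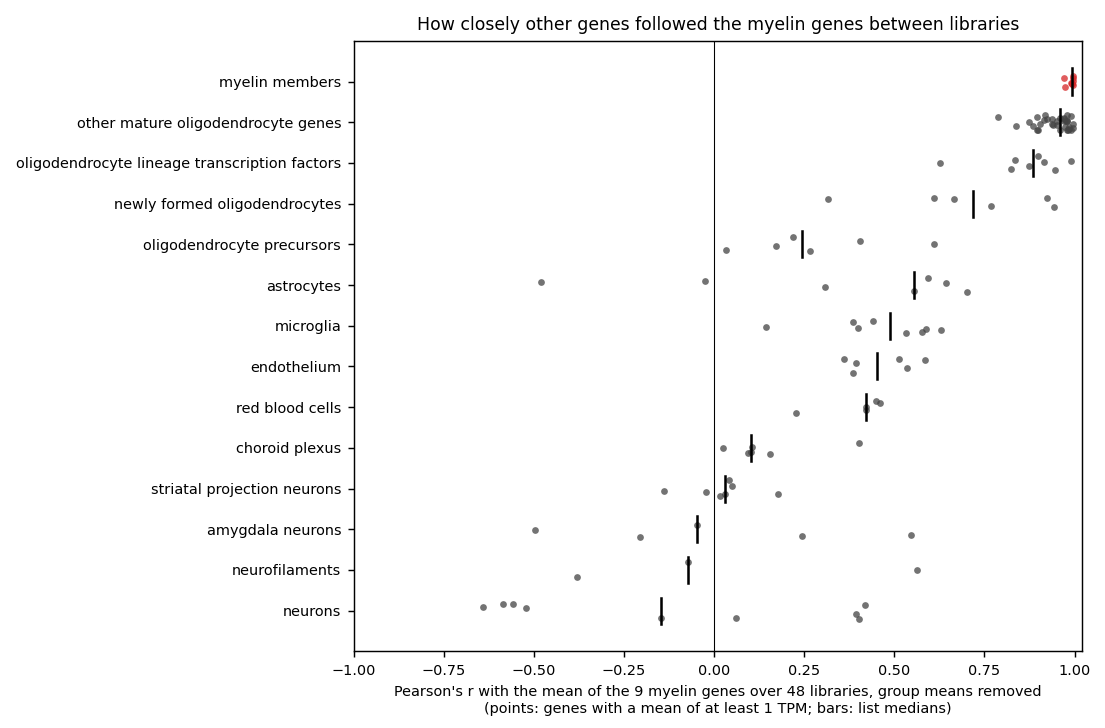
Pearson's r of each gene with the mean of the 9 myelin genes over 48 libraries, group means removed, by gene list; points are genes with a mean of at least 1 TPM and bars are list medians. Medians fall from 0.959 in other mature oligodendrocyte genes to 0.243 in precursor genes, and neurons lie at −0.149. The 9 members enter their own mean, so their points are high by construction.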

How the data were processed

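RNA was extracted from frozen amygdala punches, and TruSeq libraries were sequenced on an Illumina HiSeq2000. The authors deposited TPM values, 1 column per library. Per the labels and the study's methods, single-end reads were trimmed with Trimmomatic after FastQC, aligned to GRCm38 with HISAT2 2.1.0 and quantified with StringTie 1.3.4 and an Ensembl annotation, and the authors tested counts in edgeR. Counts were not used here. TPM is relative, so a rise in some transcripts lowers the share of the rest, and read depth cannot be recovered. The series' design text names other brain regions and another sequencer, while the sample labels say amygdala and were followed. No column was left unmapped (0 of the table).

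Positions are those of GENCODE M21, built on the same assembly, and 52403 of 52636 gene identifiers matched a symbol. Values were transformed to log2(TPM + 0.1), so fold changes are on the log2(value + pseudocount) scale. A gene entered a fit if 8 or more of its libraries reached 0.1 TPM. Each of 11 comparisons was fitted in limma 3.58.1 (R 4.3.3, eBayes with a trended prior) to the libraries it concerns, with no covariate. Two-sided p-values were adjusted after Benjamini and Hochberg over every gene in the fit, and genes under 0.05 were called. Intervals are 95% intervals of the moderated statistic. The labels name 48 separate mice. Correlations were computed in Python 3.11.15 (scipy 1.17.1) after removal of group means, with 100000 permutations within groups.

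The genes named were the 9 members, those among the 10 other genes most like them, *Brd1*, and, from the other lists, genes past the threshold and those with the highest and lowest correlation. A few other list genes were named after their values were seen, and some genes that the rule names are not reported here. The members and all lists were chosen with earlier results of these data known. The code was tested on simulated data. The alternatives changed the pseudocount (0.01 or 1), dropped the filter or raised it to 1 TPM, or used median-ratio scaling, 1 fit of all 48 libraries, a replicate block, the sample code range as a term and leaving out each library. The code range term split the codes at 130 within vehicle mice and at 402 within drug mice. It therefore did not adjust for the separate code ranges of vehicle and drug mice.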

Additional observations from a re-analysis of the deposited data

Results flagged for a closer look

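Dixon's test on TPM, at the 95% level, flagged replicate 1 of the WT vehicle mice for all 9 myelin genes. This replicate stood apart from the other 7 mice, with a gap to the next that was large for the range of the group. Its levels were 1959 TPM for *Mbp*, 260 TPM for *Mog*, 560 TPM for *Mag*, 2617 TPM for *Mobp*, 861 TPM for *Cnp*, 638 TPM for *Cldn11*, 71.4 TPM for *Opalin*, 158 TPM for *Ermn* and 702 TPM for *Mal*. In the same order the next highest mouse, replicate 7 for each gene, had 899, 117, 239, 1132, 434.3, 279, 28.4, 62.0 and 306 TPM. The test assumes normal values, for which chance flags about 1 in 20 groups. TPM was skewed here, and that rate need not hold. *Mbp* in WT vehicle mice had a mean of 520 TPM and a median of 260 TPM. The flag rests on TPM and not on the log2 scale used for the fits. Of the 54 combinations of gene and group, the 9 flagged all come from this 1 library. As the 9 genes move together, they count as 1 observation and not as 9. The reason for the high values was not tested. No interaction of drug and genotype passed the threshold for a member.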

How the results depend on the processing

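Of 1396 values recomputed under an alternative, 1394 kept their direction and side of the threshold or, without a test, stayed within the spread. A median difference that crossed 0 within the spread still counted as kept. As no myelin gene was called in the main fits, a change of sign among called values could not occur. The number of myelin genes called was 0 in all 11 comparisons under pseudocounts of 0.01 and 1, both other filters, median-ratio scaling, 1 fit of all 48 libraries, the replicate block and the sample code range. IMN against vehicle in *Brd1*+/- mice came closest, with a lowest adjusted *p* from limma of 0.0601 against 0.338 in the main fit. The median difference there lay between −1.36 and −0.995 over these settings. Leaving out 1 library moved the number of myelin genes called in 2 comparisons. It ranged from 0 to 2 for *Brd1*+/- against WT with vehicle and from 0 to 7 for FLX against vehicle in WT mice, in both with the highest count without WT vehicle replicate 1. The count of all genes called moved by over 1.5 times in several comparisons. For *Brd1*+/- against WT it was 172 with vehicle, 24 with the filter at 1 TPM, 63 with the replicate block and 349 without WT vehicle replicate 1, and with FLX it was 364, 29 in 1 fit of all libraries, 46 with the replicate block and 70 without WT FLX replicate 7. For FLX against vehicle in WT mice it was 79, 0 with the replicate block and 956 without WT vehicle replicate 1, and leaving out WT FLX replicate 7 gave 1. In *Brd1*+/- mice it was 188 for IMN (23 to 439 over the settings) and 178 for FLX (24 to 415), and for the interactions it was 143 with IMN (15 to 212) and 455 with FLX (247 to 695 with 1 library left out). In FLX against IMN in *Brd1*+/- mice the uncalled median difference lay between −0.09 and 0.51 when 1 library was left out.

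Same-numbered samples did not deviate together in every pair (correlations of −0.41 to 0.65), so the numbers were not taken to pair mice. With the replicate block 0 members were called in all 11 comparisons, and the lowest adjusted *p* from limma was 0.204 (FLX by genotype). Every group held the same replicate numbers, so the block could not change a median difference, which was 1.49 with vehicle. The median correlation between members lay between 0.981 and 0.984 and their median SD between 1.08 and 1.20 over the 6 alternatives tried. TPM gives no depth, so counting error was not separated from differences between mice.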
